A study of Lymantria dispar dispar and Lymantria dispar asiatica with 30 samples.

Results

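In the spongy moth, Lymantria dispar, 26 gene models of 19654 measured had higher values in every Asian (ASM) pupa than in any European (ESM) pupa. They were chosen by their expression values, as the models whose lowest value over 15 ASM libraries lay above the highest value over 15 ESM libraries. The rule passed 27 models, or 0.137% of the table, and 1 of them is not reported here. The same rule turned round, with every ESM library above every ASM library, passed 26 models, or 0.132%. Since the strain difference itself chose these models, it is given throughout as a description with no test, and tests were kept to how the models varied over days.

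The strains differ in whether their adult females fly, which as a rule only those of ASM do, and the pupal stage is when wings, flight muscle and the adult nervous system are built. Whole female pupae were sequenced one by one on days 1, 3, 5, 8 and 11 after pupation, 3 of each strain on each day, in order to compare gene expression between the strains while these tissues form. ASM pupae came from 1 colony (strain label RM, lab generation 34) reared with 0.21 g of iron phosphate per litre of diet, and ESM pupae from 1 colony (strain label CT, lab generation 32) reared with 0.13 g per litre. Eggs of many females were mixed within a colony. Strain, colony and diet cannot be told apart, and the p-values measure the spread between individual pupae of these 2 colonies.

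The reads of both strains were aligned to a draft genome of an ASM moth. A model whose sequence differs between the strains, or that an ESM moth lacks, can lose ESM reads in this step, and that part in the results was not tested. In RNA of whole pupae, fewer cells of a type and less RNA per cell cannot be told apart. Values are given as normalised counts, which are reads per gene model divided by a size factor for the depth of each library. Reads counted in gene models, as recovered from the deposited values, were 3445406 to 10786421 per library in ASM and 2638192 to 7170221 in ESM pupae. A count of 0 in a library allows up to 3 reads. No gene names that mark a tissue were checked, because only 616 of the 19654 models were paired with a description in the sources used here.

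Of the 26 models, 8 had a description and 7 of these named a function. They are a beta-1,3-galactosyltransferase 6 (Lda.13851), a cytoplasmic FMR1-interacting protein (Lda.32537), a saccharopine dehydrogenase-like oxidoreductase (Lda.17133), a prolyl endopeptidase (Lda.2135), and 3 models whose matches derive from transposable elements (Lda.2947, Lda.13028 and Lda.16333). The eighth, Lda.23798, matched an uncharacterised protein of the butterfly Pararge aegeria. The study drew up its lists of described models partly on these samples, so membership in them is not independent of strain. For the other 18 models no name or role is given.

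Most of the 26 were weakly expressed. In ASM pupae, 14 had a median normalised count under 10, 10 had one between 10 and 100, and 2 had one over 100. The median over the 26 models was 8.49 in ASM pupae, against 28.9 over all models tested, and 0.861 in ESM pupae. Weak models were also common under the rule turned round, where 12 of 26 had an ESM median under 10. The median over those models was 12.3 in ESM and 0 in ASM pupae. Together the 26 models higher in ASM took 0.0138 to 0.0280% of the counted reads of an ASM library and 0.00454 to 0.00723% of those of an ESM library. The lowest ASM library rested on 3 reads or fewer for 15 of the 26 models, and on 1 read for 5, while it held 10 reads or more for 8.

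**Figure D1:**
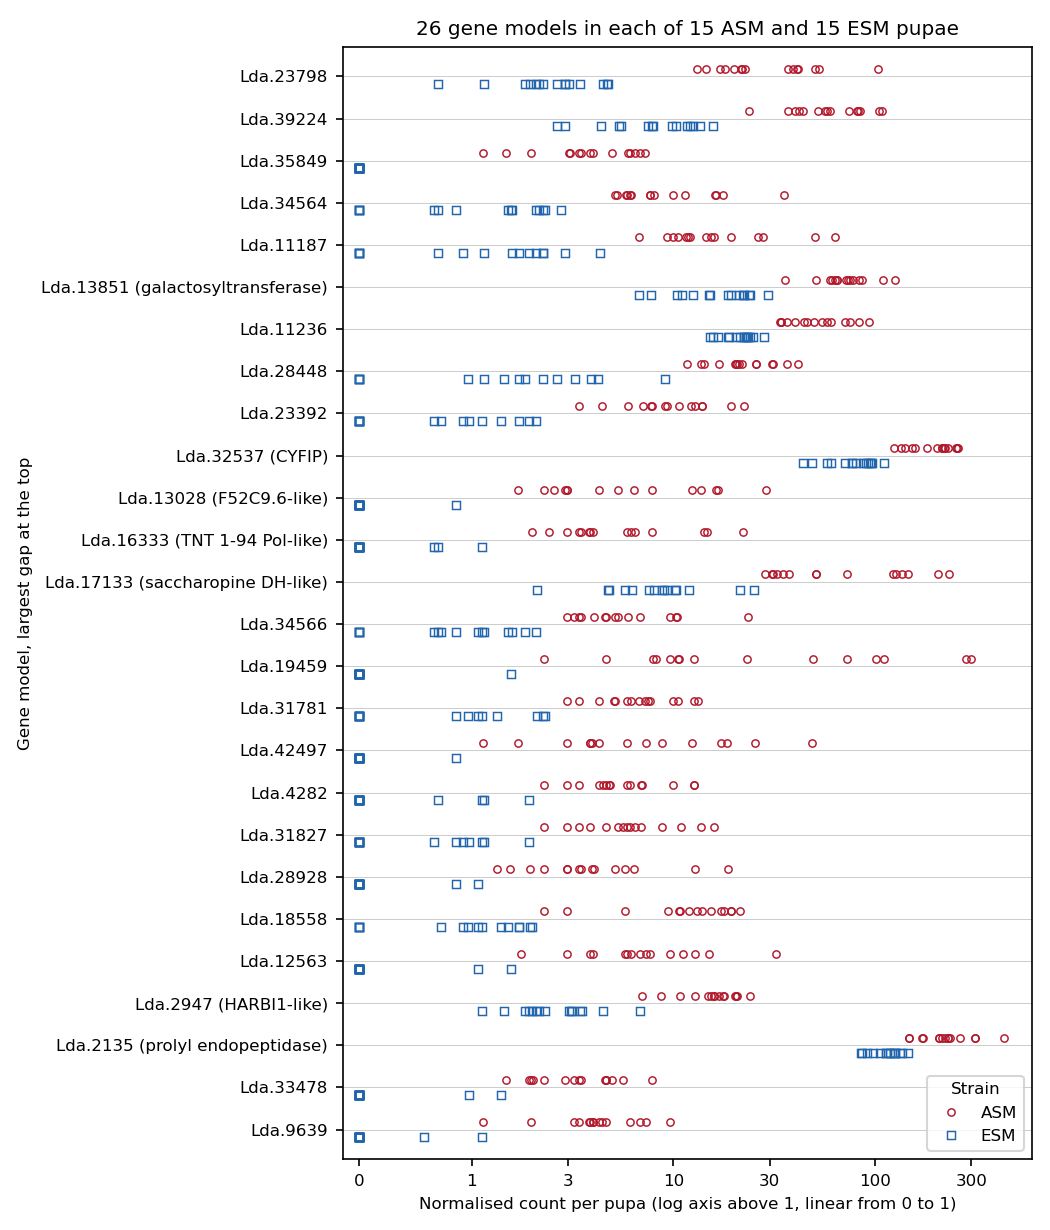
Normalised count of each of the 26 gene models in each pupa, with ASM pupae as red circles above ESM pupae as blue squares; the horizontal axis is logarithmic above 1 and linear from 0 to 1. For 18 models at least 1 ESM pupa sits at 0, and the 2 highest rows by level are Lda.2135 and Lda.32537, with ASM medians of 222 and 214.

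The models fell into those read in every ESM pupa and those near the limit of detection in ESM. There were 8 models with reads in all 15 ESM libraries. The other 18 were at 0 in at least 1 ESM library, and 11 of them had an ESM median of 0. For the 17 models with more than 3 ESM reads in all, the ASM mean was 2.04 to 18.9 times the ESM mean, with a median of 9.03. A further 8 models had only 1 to 3 reads over the 15 ESM libraries, and 1 had none.

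Lda.23798, the butterfly match with no known role, had the widest gap between the strains. Its normalised counts had a lowest value of 13.2, a median of 22.8 and a highest of 104 in ASM pupae, against 0.703, 2.66 and 4.75 in ESM pupae. The lowest ASM pupa was thus well above the highest ESM pupa. The mean was 34.3 ± 23.3 in ASM and 2.74 ± 1.21 in ESM pupae (SD, n = 15 each), a ratio of 12.5. Its highest ASM pupa, day 5 replicate 3, was 1.98 times the next, and the ratio of means without that pupa was 10.7.

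Lda.39224, a model with no description, ranked second by gap. It ran from 23.7 through a median of 57.9 to 109 in ASM pupae, against 2.66, 7.91 and 15.8 in ESM pupae. The ratio of means was 7.30.

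Among the models with a named function, the cytoplasmic FMR1-interacting protein Lda.32537 and the prolyl endopeptidase Lda.2135 were the most abundant. The first is a subunit of the WAVE complex, which turns on branching of actin filaments, and the second cuts short peptides after proline. Lda.32537 had a lowest normalised count of 124, a median of 214 and a highest of 256 in ASM pupae, against 44.1, 80.6 and 111 in ESM pupae. Its ratio of means was 2.50, from means of 197 ± 45.5 in ASM and 79.0 ± 19.3 in ESM pupae (SD, n = 15 each), and its spread relative to the mean in ASM pupae, 23.1%, was the smallest of the 26.

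Lda.2135 was close to the threshold of the rule. It ran from 147 through 222 to 436 in ASM pupae, against 85.5, 119 and 146 in ESM pupae, so that the lowest ASM and the highest ESM pupa were almost level. Its ratio of means, 2.04, was the smallest among the 17 models, and the strains overlapped once the libraries were scaled in any of the 3 other ways tried.

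The galactosyltransferase Lda.13851 belongs to the enzymes that build the sugar linker joining glycosaminoglycan chains to proteoglycans. Its normalised counts ran from 35.9 through 71.9 to 125 in ASM pupae, against 6.75, 18.7 and 29.4 in ESM pupae. The ratio of means was 4.25, and by day it was between 3.27 and 5.14. That it was above 1 on each day is fixed by the rule.

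Lda.11236, with no description, had a ratio of means of 2.55. It ran from 33.8 through 49.7 to 92.9 in ASM pupae, against 15.2, 22.4 and 28.1 in ESM pupae.

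The matches of 3 models derive from transposable elements, which are mobile DNA sequences present in many copies. Lda.2947 resembled the nuclease HARBI1, a host gene derived from the transposase of Harbinger elements. It ran from 7.00 through 16.0 to 24.1 in ASM pupae, against 1.13, 2.30 and 6.82 in ESM pupae, with a ratio of means of 5.62. Like Lda.2135, it no longer passed the rule under any of the 3 other scalings. Lda.13028 resembled a transposon-derived protein first named in the worm Caenorhabditis elegans. It had 137 reads over the ASM libraries and 1 read over the ESM libraries. Its highest ASM pupa reached 28.8 and its lowest 1.71, against 0.861 in the single ESM pupa with a read. Lda.16333 resembled the Pol polyprotein of a retrotransposon of tobacco. It had 111 reads in ASM and 3 in ESM libraries, with normalised counts of 2.00 to 22.2 in ASM pupae and up to 1.13 in ESM pupae. Reads of repeated sequences can be divided among copies, so the counts of Lda.13028 and Lda.16333 are uncertain.

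The other transposable-element models with a description did not lie on one side. Of 53 that are not among the 26, 31 were higher and 16 lower in ASM pupae, and the median difference was 0.97 on the deposited scale, against 0.02 over all models tested (limma, adjusted p under 0.05). Across the table, 12.4% of models were higher and 10.9% lower in ASM by the same test. Among 24 other models of the cytoskeleton and adhesion list, which holds Lda.32537, 9 were higher and 3 lower in ASM pupae. The 24 include 2 models of actin-related protein 2, a subunit of the complex that WAVE turns on. These 2 were named after their values were seen, while the 3 lower models are not named. Any link of the 2 to Lda.32537 was not tested. Lda.33768 averaged 79.7 ± 33.9 in ASM and 45.9 ± 15.1 in ESM pupae, and Lda.10510 averaged 149 ± 51.1 in ASM and 96.2 ± 35.9 in ESM pupae (SD, n = 15 each). Among 17 other proteases, beside the prolyl endopeptidase, 4 were higher and 4 lower. These lists hold models that the study named partly because of these samples, and the counts are no evidence of a direction apart from it.

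Lda.35849 was the only one of the 26 with no read in any ESM library. It had 78 reads over the 15 ASM libraries, 1 to 15 in each, and normalised counts of 1.14 to 7.28 with a median of 3.86. Against a limit of 3 reads over the ESM libraries together, this was at least 22.8-fold higher in ASM pupae. A further 18 models in the table also had no ESM read but missed at least 1 ASM library. Of these, Lda.24009 was read in the most ASM libraries, 12 of 15, and is named after its values were seen. In the other direction 20 models had no ASM read, and 2 of them were read in every ESM library.

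For the 8 models with 1 to 3 ESM reads in all, ratios of pooled reads have wide intervals that cover counting error only. The intervals leave out the spread between pupae and the choice of these models by the strain difference. They are therefore no test of that difference. The largest was that of Lda.19459, with 972 reads in ASM and 1 in ESM, a ratio of 851 (95% exact interval 152 to 33646). For Lda.13028 the ratio was 120 (21.2 to 4772), for Lda.42497 159 (28.2 to 6328), and for Lda.33478, the smallest of the 8, 18.4 (6.01 to 91.5).

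The models varied over the pupal days, and that variation was tested within each strain. In ASM pupae the level changed over the 5 days for 11 of the 26 models (42.3%), against 57.0% of all models tested (limma moderated F test, adjusted p under 0.05). In ESM pupae it changed for 1 of the 26, against 56.2% of all models. The rule bears on these counts, since it kept ESM values low and 18 of the 26 were at 0 in at least 1 ESM pupa. It bears on the ASM count as well, since it favours models whose range over days is small. Low counts also limit the ASM test, with 14 of the 26 at an ASM median under 10. Of the 11, 4 had their highest ASM day mean on day 1 or 3, 6 on day 5 or 8, and 1 on day 11. The same shares over all models were not taken, so these counts describe the 11 only.

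Lda.19459, with no description, fell most steeply. Its normalised counts in ASM pupae were 111, 283 and 300 at the start (day 1) and 49.3, 101 and 73.0 on day 3. They were 23.3, 7.96 and 12.7 by day 5, 10.5, 10.6 and 2.30 by day 8, and 8.25, 9.64 and 4.64 at the end (day 11). The 3 pupae of day 1 were above all later pupae, and the day 1 mean was 30.8 times the day 11 mean. Its ESM value was 1.56 in 1 pupa of day 1 and 0 in the 14 others. The course in ASM had an adjusted p of 1.14e-10 (limma).

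The saccharopine dehydrogenase-like oxidoreductase Lda.17133 is named after its likeness to an enzyme of lysine breakdown. It also fell in ASM pupae, with 204, 136 and 233 at day 1 and 123, 145 and 127 at day 3 (adjusted p for the course = 2.27e-06, limma). It had 37.5, 50.7 and 31.3 by day 5, 50.8, 72.5 and 28.3 by day 8, and 35.0, 32.8 and 31.0 by day 11. ESM pupae had 2.11 to 25.0, with a median of 8.77. Days 1 and 3 thus stood above the 3 later days in ASM pupae, while the 15 ESM pupae lay under every ASM pupa. Its ratio of ASM to ESM means was 14.1 for day 1 and 19.9 for day 3, then 4.71, 4.71 and 3.65 for days 5, 8 and 11.

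**Figure D2:**
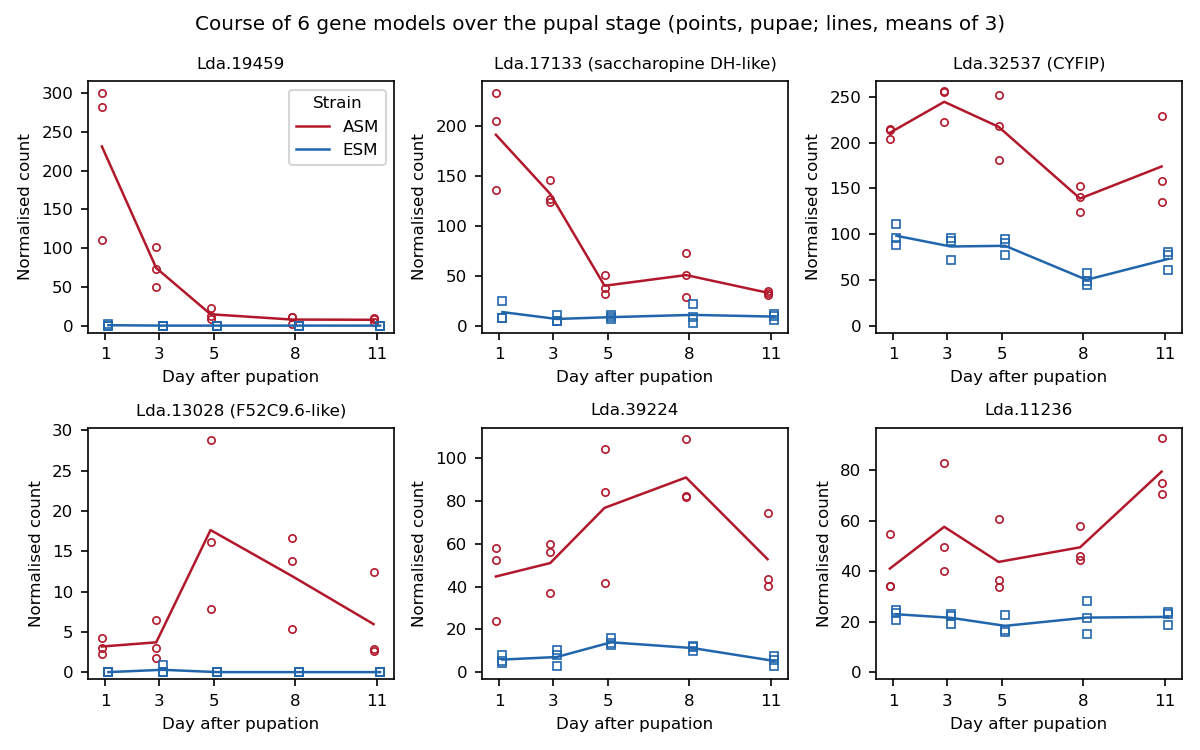
Normalised count (vertical axes) against day after pupation for 6 gene models, with 3 ASM pupae (red circles) and 3 ESM pupae (blue squares) per day and lines through the day means. Lda.19459 and Lda.17133 have their highest ASM mean on day 1, Lda.13028 on day 5, Lda.39224 on day 8 and Lda.11236 on day 11. Lda.32537 has its lowest mean on day 8 in both strains.

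Lda.32537 was the only one of the 26 whose level changed over days in both strains. Its day means ran 211, 245, 217, 139 and 174 in ASM pupae (adjusted p = 0.00147, limma), against 98.2, 86.5, 87.3, 50.0 and 72.8 in ESM pupae (adjusted p = 0.00339, limma). Day 8 was the lowest day in each. The ratio of means stayed between 2.15 and 2.83, and its spread over days, 1.32 times, was the smallest among the models for which all 5 day ratios could be taken.

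Lda.11187, with no description, had its highest ASM day mean on day 1 and its lowest on day 11, 32.5 ± 16.0 and 9.22 ± 2.39 (SD, n = 3 each), against 2.41 ± 2.21 and 0.69 ± 0.61 in ESM pupae on the same days. Its adjusted p of 0.0461 (limma) was just inside the threshold, and the call was lost in 22 of the 30 fits that left out 1 library.

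The highest ASM day mean was on day 5 or 8 in 6 models of the 11, a count with no share of all models beside it. All of these 6 but Lda.39224 ran in parallel with another of them over the 15 ASM libraries. Lda.13028 ran in parallel with Lda.42497 (Spearman rho 0.96), and Lda.31827 with Lda.4282 (0.918) and Lda.18558 (0.925). Lda.13028, the transposon-derived model, had ASM day means of 3.18, 3.69, 17.6, 11.9 and 5.95 (adjusted p = 0.00137, limma), and Lda.42497 had 2.80, 4.82, 23.9, 17.0 and 6.71 (adjusted p = 0.00307, limma). The pupae of day 5 had 16.2, 28.8 and 7.83 for Lda.13028, and those of day 8 had 16.6, 5.32 and 13.8. For Lda.42497 they had 17.2, 48.7 and 5.87 on day 5 and 25.4, 7.32 and 18.4 on day 8. Days 5 and 8 thus overlapped in both models. Lda.4282, Lda.31827 and Lda.18558 also had higher means on days 5 and 8 than on days 1 and 11 (adjusted p = 0.00574, 0.00697 and 0.0161, limma), and the call of Lda.18558 was lost without ASM day 1 replicate 1 or replicate 2. Lda.39224 had ASM day means of 44.7, 51.0, 76.8, 91.0 and 52.8 (adjusted p = 0.0345, limma), against 5.86, 7.05, 13.9, 11.2 and 5.22 in ESM pupae. Its ESM means were also highest on days 5 and 8, but the ESM course did not pass the test (adjusted p = 0.106, limma), and the ASM call was lost without day 1 replicate 1, day 5 replicate 3 or any of the 3 pupae of day 8.

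As a straight line over days, 1 of the 26 models rose in ASM pupae, against 25.5% of all models tested, and 7 fell, against 25.4%. These counts too are affected by the rule, which favours a small range over days. The riser was Lda.11236, with day means of 41.0 on day 1 and 79.4 on day 11 (0.10 ± 0.03 units of the deposited scale per day, SE, adjusted p = 0.0114, limma). It passed neither this test nor that of the course without day 11 replicate 3. The 7 that fell were Lda.19459, Lda.17133, Lda.32537, Lda.11187, Lda.2947, Lda.23798 and Lda.34564. The slope was steepest for Lda.19459, which fell by 0.60 ± 0.04 per day (SE, adjusted p = 2.71e-11, limma). The calls of Lda.23798, Lda.34564 and Lda.2947 were lost in 3, 3 and 6 of the fits without 1 library, all of them ASM libraries.

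The strain difference itself changed over days for 2 of the 26 models (7.69%), against 3.65% of all models tested (limma, interaction of strain and day, adjusted p under 0.05). They were Lda.19459 (adjusted p = 2.87e-06) and Lda.17133 (adjusted p = 0.00953). As 14 of the 15 ESM pupae were at 0 for Lda.19459, its change in the difference is the fall in ASM pupae. With limma voom on the recovered counts neither passed (adjusted p = 0.200 for Lda.19459 and 0.146 for Lda.17133), although both were under 0.05 without adjustment. The next smallest values, for Lda.13028, Lda.31827 and Lda.42497, were 0.134, 0.187 and 0.191 (limma).

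**Figure D3:**
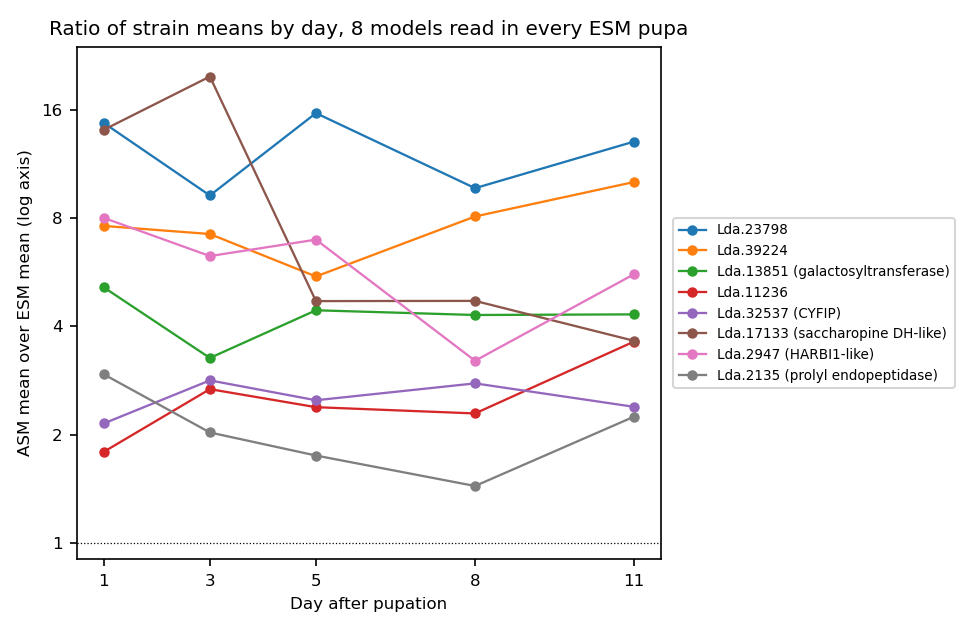
Ratio of the ASM mean to the ESM mean (log axis, 3 pupae per strain and day) against day after pupation for the 8 models with reads in every ESM pupa; the dotted line marks equal means. Lda.17133 has 19.9 on day 3 and 4.71 on day 5, and Lda.2135 comes nearest to equal means with 1.44 on day 8.

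Over the 8 models read in every ESM pupa, the ASM mean was above the ESM mean on each day, as the rule fixes. The size of the ratio still varied. It was between 1.44 and 2.94 for Lda.2135, between 1.79 and 3.63 for Lda.11236, between 5.51 and 10.1 for Lda.39224, and between 9.26 and 15.7 for Lda.23798. For the HARBI1-like Lda.2947 it was lowest on day 8, with means of 14.3 ± 6.87 in ASM and 4.46 ± 2.06 in ESM pupae (SD, n = 3 each).

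Among the ASM pupae, 2 were often at an extreme over the 26 models. Day 1 replicate 2 was the lowest ASM pupa for 7 of them, on 1 to 3 reads in each, against 7.84% of all models tested. That share is not a like background, since a model at 0 in several ASM pupae was counted at the first of them. The 7 include Lda.42497, Lda.4282, Lda.31827 and Lda.18558. Without day 1 replicate 2 the course in ASM was still called for the first 3 of these and not for Lda.18558. Day 5 replicate 3 was the highest ASM pupa for 10 of them, against 6.63% of all models tested, and was the lowest for none. It held 5714760 reads counted in gene models, within the range of the other ASM libraries. In Lda.34566 it held 23.5 against 10.4 in the next ASM pupa, in Lda.12563 it held 32.3 against 15.0, and in Lda.34564 it held 35.2 against 17.6. The first 2 of these are named after their values were seen. Without this pupa the ratios of means of the 7 models among the 10 with more than 3 ESM reads were 6.43 to 17.5, against 7.76 to 18.9 with it.

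Several of the 26 models did not vary independently. Over the 15 ASM libraries, 7 of the 325 pairs of models had a rank correlation of 0.9 or more, where the median pair had 0.13, and these pairs joined 9 models into 3 groups. The limit of 0.9 was chosen after the values were seen. Lda.34564 and Lda.34566 had a Spearman rho of 0.97 and a Pearson r of 0.995 (n = 15 libraries), and Lda.34566 held 0.50 to 0.75 reads for each read of Lda.34564. The model numbered between them, Lda.34565, had 8 to 47 reads in ASM and 1 to 4 in ESM libraries and missed the rule by 0.08 on the deposited scale. Lda.13028 and Lda.42497 had a rho of 0.96, and the single ESM read of each was in the same pupa, day 3 replicate 2. The third group held Lda.31827, Lda.31781, Lda.23392, Lda.4282 and Lda.18558, with rho of 0.904 to 0.925 in the pairs that joined them. Such pairs share libraries and depth, and whether they also share reads or are copies of one sequence could not be read from the table, so that 26 models may stand for fewer transcripts.

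**Figure D4:**
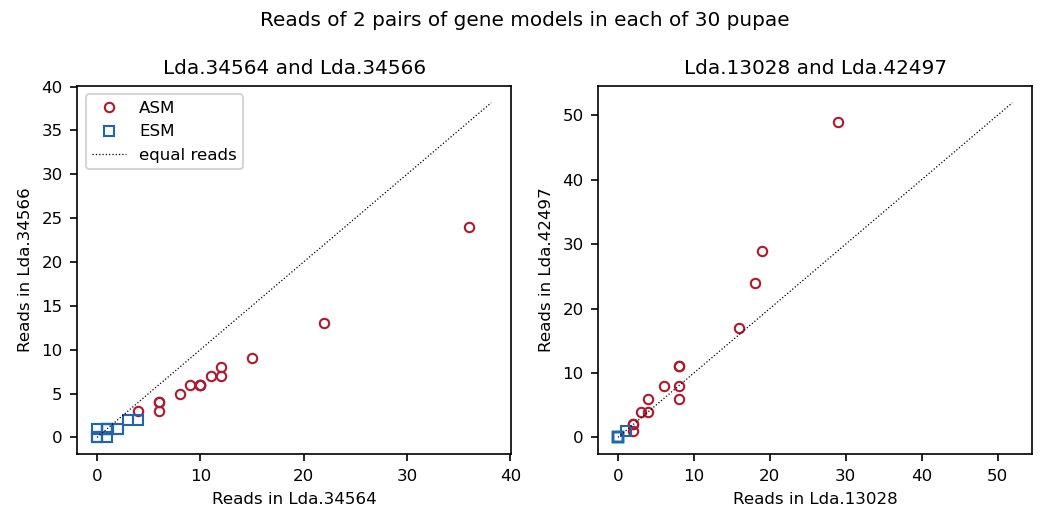
Reads of one gene model against reads of another in each of 30 pupae, ASM as red circles and ESM as blue squares, with a dotted line at equal reads. Lda.34566 keeps below Lda.34564 in all 15 ASM pupae, and Lda.42497 and Lda.13028 each have 1 read in a single ESM pupa.

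The steadiest models on the deposited scale, Lda.33478, Lda.35849, Lda.9639, Lda.31781 and Lda.2947, had SDs of 0.32 to 0.46 over the 15 ASM pupae, but 4 of them were weak, with ASM medians of 3.42 to 6.80, where the scale is compressed. The last model inside the rule was Lda.9639, whose lowest ASM pupa had 1.14 and highest ESM pupa 1.13, each from 1 read. The first outside with ESM reads was Lda.8378, with 8.65 in its lowest ASM pupa and 8.66 in its highest ESM pupa. Of the remaining models, Lda.28448 had a lowest, median and highest of 11.7, 21.3 and 41.4 in ASM pupae, against 0, 1.72 and 9.13 in ESM pupae, and Lda.23392 had 3.42, 9.29 and 22.5 in ASM, against 0, 0.728 and 2.08 in ESM pupae.

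The strict rule depends on how libraries are scaled. With libraries shifted to the same median 22 of the 26 models still passed, with CPM (counts scaled by library totals) 14, and with unscaled counts 12. All 3 ways passed the same 10, which were Lda.23798, Lda.13851, Lda.17133, Lda.19459, Lda.35849, Lda.11187, Lda.28448, Lda.13028, Lda.16333 and Lda.34566. When only pupae of the same day had to be apart, 95 models passed, the 26 included.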

How the data were processed

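RNA of 30 whole female pupae was sequenced on an Ion Proton instrument. The authors trimmed the reads with Trimmomatic 0.36 after FastQC 0.11.5, mapped them to a draft ASM genome with HISAT2, removed iflavirus reads, merged gene models with StringTie and counted with featureCounts 2.0.0. The deposited values are log2-like, made by the authors with the variance-stabilising step of DESeq2 1.28.1 under R 4.0.2, where a count of 0 is -0.52 in every library. Doubling the normalised count adds 0.26 units at 1, 0.98 at 10 and 1.65 at 100.

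Counts were recovered by inverting the curve shared by the libraries, and 99.9 to 100% of values per library were within 0.05 of a whole number. limma 3.58.1 (R 4.3.3) was fitted to the deposited values with 10 group means and a variance trend, over the 19652 models that exceeded this value in 3 or more libraries, with Benjamini-Hochberg adjustment. Python 3.11.15, numpy 2.4.6, pandas 2.3.3, scipy 1.17.1 and matplotlib 3.10.9 served for the rest. Fits were also run on simulated data, with changes planted only in models with a mean normalised count over 10. How often changes in weaker models are called was therefore not examined. The members, lists and the rule for named models were chosen with earlier results of these data known. Models named are those with a description, the 10 with the largest gap, the 5 highest in ASM, the 5 with the smallest adjusted p for the course in ASM among those with a rising and the 5 among those with a falling linear slope, the 5 with the smallest for the interaction, the 5 steadiest, and the last inside and first outside the rule.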

Additional observations from a re-analysis of the deposited data

Results flagged for a closer look

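In 2 gene models the ASM minus ESM difference changed over days by the test of the interaction (limma, adjusted p under 0.05). For Lda.19459 the adjusted p was 2.87e-06. Its ASM day means were 231 ± 104, 74.4 ± 25.8, 14.7 ± 7.85, 7.82 ± 4.78 and 7.51 ± 2.58 on days 1, 3, 5, 8 and 11, against 0.521 ± 0.901 on day 1 and 0 on the later days in ESM pupae (SD, n = 3 each). For Lda.17133 the adjusted p was 0.00953. Its ASM day means were 191 ± 49.9, 132 ± 11.9, 39.8 ± 9.92, 50.5 ± 22.1 and 32.9 ± 2.00, against 13.5 ± 9.94, 6.63 ± 3.20, 8.47 ± 2.01, 10.7 ± 9.74 and 9.02 ± 3.12 in ESM pupae. In both models the difference was in the same direction in all pupae, as the rule fixes, and its size differed between the early and the later days.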

How the results depend on the processing

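Leaving out 1 library never removed a model from the rule, by its construction, and gave 26 to 31 models. CPM scaling passed 15 models, and separation within each day alone passed 95. The course in ASM was called for 11 of the 26, for 4 with a filter of reads in all libraries, which kept 8 of the 26, for 7 on log2 of the normalised count plus 1, and for 9 to 16 without 1 library (fewest without ASM day 1 replicate 1, day 8 replicate 1 or day 8 replicate 2, and most without ASM day 5 replicate 1). The trend was called for 8, for 5 with that filter and for 6 to 11 without 1 library. The course in ESM was called for 1, and for 3 on log2 of the count plus 1. The interaction was called for 718 models in all, for 325 with that filter, for 293 with voom and for 469 to 1216 without 1 library (without ESM day 3 replicate 2 or 3). Among the 26 it was called for 2, for 1 with that filter, for 0 with limma voom (2 at an unadjusted p under 0.05), for 1 on log2 of the count plus 1, where Lda.17133 was lost (adjusted p = 0.11, limma), and for 2 to 4 without 1 library, with 4 without ASM day 5 replicate 3. Ranking by the gap in log2 was not run, because fewer than 150 models passed. Replicate numbers were treated as names of pupae. Whether a number also marks a shared batch is only described by the values that follow and was not tested. Over 135 pairs with the same number in other groups, the mean correlation of deviations was 0.024, and 30 pairs had one over 0.1. Of 30 libraries, 16 matched their own number best, a count set against no expected value. With the number as a replicate block the calls among the 26 were 12 for the course in ASM, 1 in ESM, 9 for the trend and 2 for the interaction. Low counts limit the separation: 15 of the 26 rest on 3 reads or fewer in 1 ASM library.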
